A study of Sus scrofa with 12 samples.

Results

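The imprinted genes followed here in whole pig ovaries were 10 in number: H19, MEG3, DLK1, PEG3, PEG10, MEST, NNAT, PLAGL1, SGCE and NDN. A member was any row of the gene table that carries one of these names, and where PLAGL1 stood on 2 rows the one with the higher mean count was used. This gave 7 members among 29150 loci. Of these, 6 had a mean FPKM (fragments scaled for locus length and library size, the authors' value) of at least 0.5 and were tested. DLK1 was below that level. No row carries the name H19, MEG3 or PEG3. PEG3 and the MEG3 position were covered by loci listed under other names and are given separately, and H19 was not analysed here.

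The animals were gilts, young female pigs, of a purebred New French Yorkshire population checked for estrus from 165 days of age. The 6 ES gilts had consecutive estrus cycles on record and were slaughtered in the third estrus. The 6 NES gilts were full sisters of these without any recorded estrus, and neither their age nor their cycle stage at slaughter is stated. No gilt is described as treated or genetically altered, and the left ovary of each gave 1 library. Cycle history, cycle stage and age at slaughter cannot be told apart between the groups.

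Imprinted genes are transcribed mainly from the copy inherited from one parent. DNA methylation laid down in the egg or the sperm marks the silent or active copy, and the marked stretch often controls a cluster of neighbouring genes. In mice and humans MEG3 and H19, both long noncoding RNAs, come from the maternal copy, and the other members come from the paternal copy. Many of these genes act on fetal and placental growth, and several stay active in adult endocrine tissue. The counts do not separate the parental copies, so every value is the sum of both.

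Library totals ran from 58140547 to 68961955 counts, and TMM scaling factors from 0.891 to 1.08. The labels name no batch. Levels within a gene are counts scaled by library size with TMM factors (CPM), and levels between genes are FPKM. As a check of the tissue, markers of granulosa cells (8 of 9 listed genes had a row), theca (7 of 7) and oocytes (5 of 6) were detected, and no marker with a row was at 0 counts in every library. The summed CPM of the granulosa markers ran from 137 to 4893 in ES and from 917 to 2900 in NES, and that of the luteal markers (6 of 7 had a row) from 716 to 3992 in ES and from 582 to 910 in NES. Single granulosa markers differed in direction. The log2 difference (ES minus NES) was 1.51 for INHA, 1.43 for CYP19A1, 0.28 for NR5A2 and 0.17 for AMHR2. It was -3.01 for IHH, -1.82 for INHBB, -1.17 for FSHR and -0.73 for FOXL2. IHH passed edgeR's test used below (adjusted p = 0.0420). Of the theca markers, HHIP, GLI1 and INSL3 were lower in ES, with HHIP and GLI1 passing that test. CYP17A1, STAR, CYP11A1 and LHCGR were higher in ES without passing. In whole tissue, fewer cells of a type and less RNA per cell cannot be told apart.

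On the FPKM scale NDN and PEG10 stood highest and DLK1 far below the rest. NDN averaged 6.83 ± 1.34 FPKM over all 12 libraries (SD), above 93.9% of the 29150 loci. PEG10 followed with 6.01 ± 2.57 FPKM. NNAT averaged 3.54 ± 0.60 FPKM, MEST 3.36 ± 4.69, PLAGL1 2.64 ± 0.48 and SGCE 2.60 ± 0.57 FPKM. The PEG3 locus had 2.55 ± 0.67 FPKM and the locus over MEG3 3.62 ± 1.77 FPKM. These SDs describe the spread over libraries. The order of the genes within the same libraries was not tested, so it is descriptive and not firm. DLK1 averaged 0.028 ± 0.022 FPKM, and 9.76% of loci had a lower mean.

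None of the 6 tested members passed edgeR's quasi-likelihood test between ES and NES ovaries at an adjusted p of 0.05. Over all 20421 loci tested, 193 passed, or 0.945%. In simulated counts the test recovered 1 of 50 loci changed 1.5-fold, 21 of 50 changed 2-fold, 35 changed 3-fold and 47 changed 4-fold. The share of loci changed in the real data is not known, so these rates may not carry over. Not passing does not show equal levels. At an unadjusted p under 0.05 the member count was 1, NDN, against 16.3% of all loci. DESeq2 called 1 member, again NDN, against 5.17% of all loci. With limma on log2(FPKM + 0.5) 0 members were called, against 337 of the 20421 loci. The median log2 difference (ES minus NES) was -0.06 over the 6 members, with 3 positive and 3 negative, and 0.04 over all loci tested. In every member the ES and NES libraries overlapped, while 1.42% of all loci tested had groups that did not overlap.

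**Figure D1:**
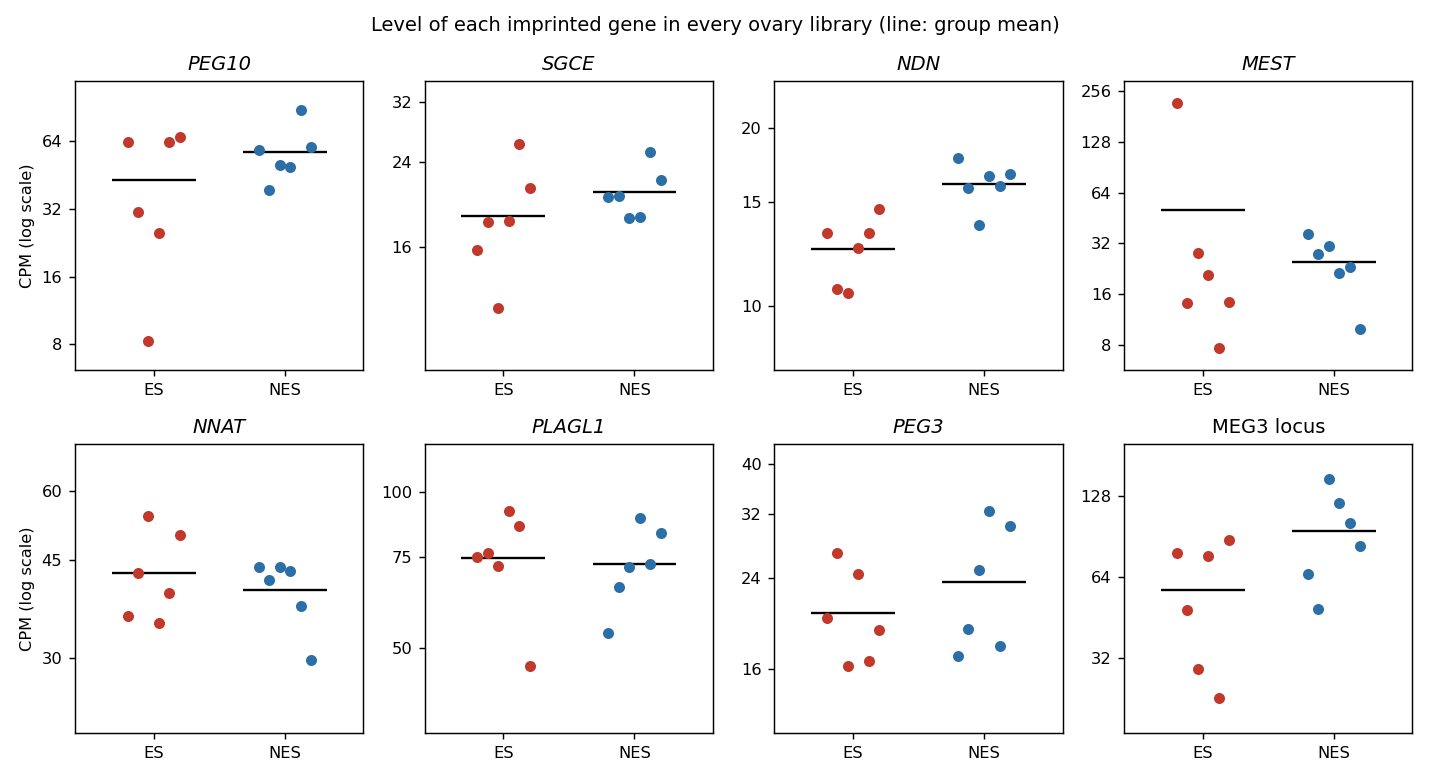
CPM on a log axis of 6 imprinted genes and 2 loci found by name table or position, with 1 point per ovary library and a line at each group's arithmetic mean, ES at the left and NES at the right of each panel. NDN shows the clearest offset, with 5 of 6 ES libraries below every NES library, while a single ES library carries the MEST mean and another is far below the rest in PEG10.

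NDN encodes necdin, a MAGE family protein that restrains cell proliferation. It is a short locus (MSTRG.1161) on chromosome 1, from 142412565 to 142414242, on the plus strand of Sscrofa11.1. The ES libraries had a lowest value of 10.5 CPM, a median of 12.9 and a highest value of 14.6 CPM, against 13.7, 16.3 and 17.8 CPM in NES. Only ES6, the highest ES library, reached above the lowest NES library, NES3. The means were 12.5 ± 1.61 CPM in ES ovaries, against 16.1 ± 1.36 CPM in NES ovaries (SD, n = 6 each). ES and NES differed by a log2 value of -0.37 ± 0.11 (SE; 95% interval -0.61 to -0.12), with an unadjusted p of 0.00679 and an adjusted p of 0.146 in edgeR's test. DESeq2 gave an adjusted p of 0.0262 for the same size of difference. The log2 difference lay between -0.42 and -0.32 whichever single library was left out, with adjusted p between 0.117 and 0.262 in edgeR. NDN also varied least among the members, with a coefficient of variation of 12.9% in ES and 8.44% in NES.

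NDN lies in a cluster with other imprinted genes. MAGEL2, a MAGE family partner of ubiquitin ligases on the same strand, averaged 9.50 ± 3.09 CPM in ES ovaries, against 12.7 ± 3.38 CPM in NES ovaries (log2 -0.42 ± 0.23, adjusted p = 0.397 in edgeR's test). MKRN3, a ring finger protein known in humans for its part in the timing of puberty, was below the expression level needed for a test. It averaged 0.35 ± 0.17 CPM in ES ovaries, against 0.63 ± 0.27 CPM in NES ovaries. UBE3A, a ubiquitin ligase of the same cluster, read at the most counted of its 3 rows, averaged 331 ± 24.3 CPM in ES ovaries, against 358 ± 9.43 CPM in NES ovaries (log2 -0.11 ± 0.08, adjusted p = 0.495 in edgeR's test). Of NDN, MAGEL2 and UBE3A, the 3 genes of this cluster tested, none passed edgeR's test and only NDN passed DESeq2's.

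PEG10 and SGCE stand head to head on chromosome 9. The PEG10 row (MSTRG.23779, 74474069 to 74486980, plus strand) and the SGCE row (MSTRG.23778, 74402717 to 74473960, minus strand) are 108 bases apart. PEG10 derives from a retrotransposon and makes a Gag-like protein needed for placental development in mice. SGCE encodes epsilon-sarcoglycan, a membrane protein of the dystrophin-associated complex.

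PEG10 had a lowest value of 8.29 CPM, a median of 47.0 and a highest value of 66.5 CPM in ES, against 38.9, 54.2 and 87.5 CPM in NES. The ES libraries were split, since ES1, ES5 and ES6 lay between 63.1 and 66.5 CPM and ES2, ES3 and ES4 between 8.29 and 30.8 CPM, below every NES library. On the log2 scale the difference was -0.42 ± 0.41 (95% interval -1.30 to 0.46; adjusted p = 0.648 in edgeR's test). Without ES3 it was -0.21. ES3 also had the lowest granulosa marker sum of all libraries, 137 CPM, and the highest macrophage marker sum (5 of 6 genes with a row), 961 CPM, against 58.0 to 91.3 CPM in the other ES libraries and 46.7 to 120.0 CPM in NES. The part of these cell types in the PEG10 values was not tested.

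SGCE had a lowest value of 12.0 CPM, a median of 18.1 and a highest value of 26.2 CPM in ES, against 18.4, 20.3 and 25.2 CPM in NES. ES spanned a wider range, with the lowest value again in ES3, and 4 ES libraries lay below every NES library while ES5 lay above them all. The log2 difference was -0.16 ± 0.17 (95% interval -0.53 to 0.20; adjusted p = 0.668 in edgeR's test). It was -0.07 without ES3 and -0.29 without ES5. A further locus on the opposite strand overlaps 53561 bases of the SGCE row at a mean of 29.5 counts.

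PEG10 and SGCE moved together across the 12 libraries, with Pearson's r = 0.80 on log2 CPM (permutation p = 0.00389, adjusted p = 0.0156 over 4 neighbour pairs). Spearman's rho was 0.64 (permutation p = 0.0296, adjusted p = 0.119). Within ES r was 0.77 and within NES 0.78 (n = 6 each, no test). Without ES3 the correlation was 0.52 and did not pass (permutation test, adjusted p = 0.397), and without the 2 libraries farthest from the PEG10 median, ES3 and ES4, it was 0.50. The relation over all libraries therefore rests in part on ES3. The permutation test is against no correlation, and the share of all loci reaching this r was not computed. Loci elsewhere correlated more strongly, such as PRKAR2B with PEG10 (r = 0.94) and RECK with SGCE (r = 0.94). The value is thus not shown to be particular to neighbours.

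The other 3 neighbour pairs gave no correlation past the test. NDN with MAGEL2 had r = 0.37 (permutation p = 0.229, adjusted p = 0.306), rho = 0.39 (permutation p = 0.208, adjusted p = 0.277) and r = 0.39 without ES2 and ES3. MEST with COPG2 had r = -0.011 (permutation p = 0.971, adjusted p = 0.971), rho = 0.12 (permutation p = 0.719, adjusted p = 0.719) and r = 0.56 without ES1 and ES5. NNAT with BLCAP had r = 0.41 (permutation p = 0.190, adjusted p = 0.306), rho = 0.54 (permutation p = 0.0748, adjusted p = 0.150) and r = 0.45 without ES3 and NES6. Within ES and NES, r was 0.047 and -0.15 for NDN with MAGEL2, -0.13 and 0.60 for MEST with COPG2, and 0.77 and -0.038 for NNAT with BLCAP (n = 6 each).

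**Figure D2:**
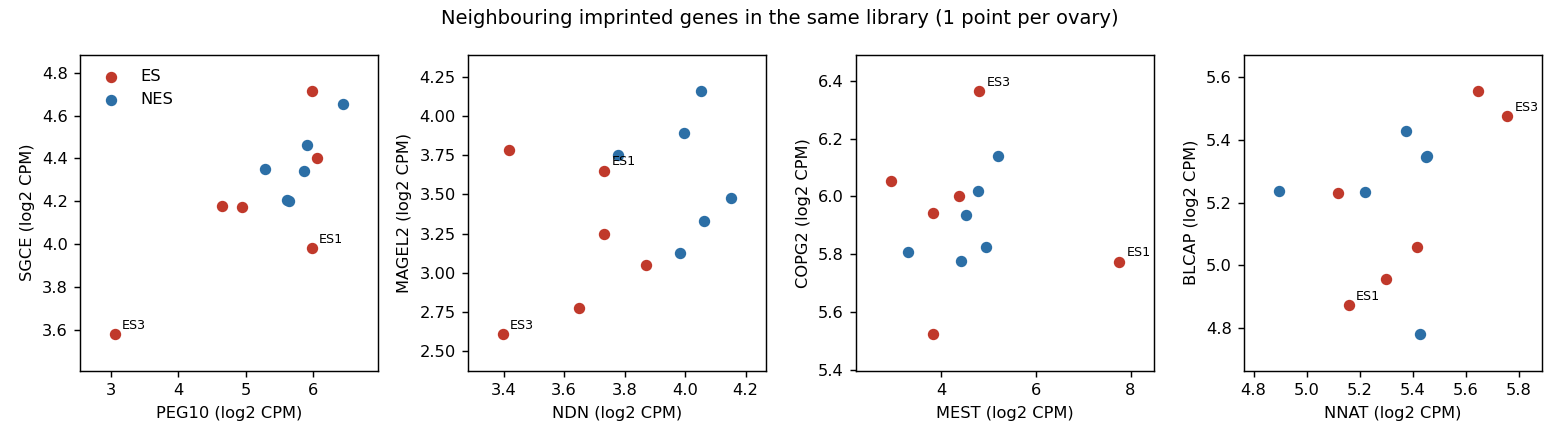
Log2 CPM of 4 pairs of neighbouring imprinted genes, with 1 point per ovary library, ES in red and NES in blue, and ES1 and ES3 labelled. PEG10 and SGCE rise together (r = 0.80) with ES3 at the low end of both, and ES1 stands alone at the high end of MEST without a matching COPG2 value.

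MEST encodes a membrane protein of the alpha/beta hydrolase fold that is abundant in embryonic mesoderm and in growing fat tissue. Its row (MSTRG.10995) runs from 18291103 to 18351202 on the minus strand of chromosome 18. The RefSeq position of MEST is 18319126 to 18358655, so the row and that position overlap only in part. The row also overlaps 41114 bases of COPG2, a coat protein subunit gene on the opposite strand. Since the counting's strand setting is not given in the sources used here, reads of COPG2 may be mixed with those of MEST. The library of ES1 had 217 CPM, whereas the other ES libraries ran from 7.65 to 27.9 CPM and the NES libraries from 9.89 to 36.6 CPM. The medians were 17.6 CPM in ES and 25.4 CPM in NES, in the reverse order of the means of 50.4 ± 82.1 CPM in ES and 24.9 ± 9.17 CPM in NES. ES and NES differed by a log2 value of 1.02 ± 0.74 (95% interval -0.58 to 2.61; adjusted p = 0.526 in edgeR's test), and without ES1 it was -0.56. DESeq2 gave no adjusted p for MEST.

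The high MEST value was not shared by COPG2 in the same library, which had 54.7 CPM in ES1 and ran from 46.0 to 82.4 CPM over all libraries. ES1 also had the highest sums of all 12 libraries for the granulosa (4893 CPM), theca (2999 CPM), luteal (3992 CPM), smooth muscle (3698 CPM), stroma (20334 CPM), oocyte (45.5 CPM) and red blood cell (5.76 CPM) markers. The theca and luteal lists share STAR, CYP11A1 and LHCGR, so these sums are not separate. The oocyte sum was nearly the same in NES6 (45.4 CPM), and ALAS2 made up most of the red blood cell sum (5.52 CPM). The part of these cell types in the MEST value was not tested. The coefficient of variation of MEST was 163% in ES, above 98.9% of all loci tested, and 36.8% in NES.

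NNAT encodes neuronatin, a small proteolipid of the endoplasmic reticulum. Its row (MSTRG.10475, chromosome 17, 40623124 to 40633373, plus strand) lies wholly within the opposite-strand locus at the RefSeq position of BLCAP. The lowest, median and highest values were 34.7, 41.0 and 54.0 CPM in ES, against 29.7, 42.3 and 43.8 CPM in NES. The groups overlapped widely, with only ES3 and ES6 above every NES library. On the log2 scale the difference was 0.10 ± 0.14 (95% interval -0.20 to 0.40; adjusted p = 0.762 in edgeR's test), and it was 0.02 without ES3 and 0.16 without ES4. BLCAP averaged 37.1 ± 7.30 CPM in ES ovaries, against 37.9 ± 5.51 CPM in NES ovaries. The counting's strand setting is not given in the sources used here, so reads of both genes may be mixed.

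PLAGL1 encodes a zinc finger transcription factor that slows the cell cycle and, in mice, regulates other imprinted genes. Its row (MSTRG.212) covers 21303936 to 21371067 on the plus strand of chromosome 1. The lowest, median and highest values were 46.2, 75.7 and 91.9 CPM in ES, against 53.3, 72.2 and 88.9 CPM in NES. ES6 was the lowest of all libraries and ES4 the highest. The log2 difference was 0.04 ± 0.16 (95% interval -0.32 to 0.39; adjusted p = 0.939 in edgeR's test), and its sign turned with the scaling (-0.0086 with upper-quartile scaling).

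DLK1 encodes a noncanonical Notch ligand on the cell surface, known in endocrine glands and as a brake on fat cell formation. At its row (ENSSSCG00000035805, chromosome 7, 121565855 to 121576725, plus strand) the ES libraries held 0 to 16 counts each and 49 in all, and the NES libraries 5 to 28 counts each and 85 in all. ES1 and ES5 had no count, which allows a level of up to 0.0460 CPM in ES1 and 0.0494 CPM in ES5, for counting error only. In a fit without the expression filter the log2 difference was -0.75 ± 0.87 (95% interval -2.63 to 1.14; adjusted p = 0.723 in edgeR's test). A difference between the groups was not detectable at this depth.

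The partner of DLK1 in its cluster is MEG3. The locus that covers the RefSeq position of MEG3 (MSTRG.21844, chromosome 7, 121656244 to 121691482, plus strand) is 35239 bases long, against 4243 bases for MEG3 itself, so its counts cannot be given to MEG3 alone. It was chosen by position. In ES the lowest, median and highest values were 22.9, 62.4 and 87.5 CPM, against 48.9, 92.6 and 148 CPM in NES. Of the ES libraries, 3 lay below every NES library, and 3 NES libraries lay above every ES library. ES and NES differed by a log2 value of -0.73 ± 0.36 (95% interval -1.50 to 0.04; adjusted p = 0.333 in edgeR's test). RTL1, a retrotransposon-derived gene on the opposite strand of the same cluster, was below the level needed for a test, with 0.95 ± 0.47 CPM in ES ovaries, against 1.39 ± 0.77 CPM in NES.

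PEG3 encodes a large zinc finger protein that in mice acts on maternal behaviour and growth. It was read at a locus (MSTRG.18918, chromosome 6, 61283952 to 61307765, minus strand) whose Ensembl identifier the name table pairs with PEG3. The lowest, median and highest values were 16.2, 19.5 and 26.9 CPM in ES, against 16.9, 22.0 and 32.5 CPM in NES. The groups overlapped over most of their range. On the log2 scale the difference was -0.20 ± 0.20 (95% interval -0.63 to 0.23; adjusted p = 0.657 in edgeR's test), and it was -0.09 without NES4. USP29 and ZIM2, its neighbours, were below the level needed for a test.

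**Figure D3:**
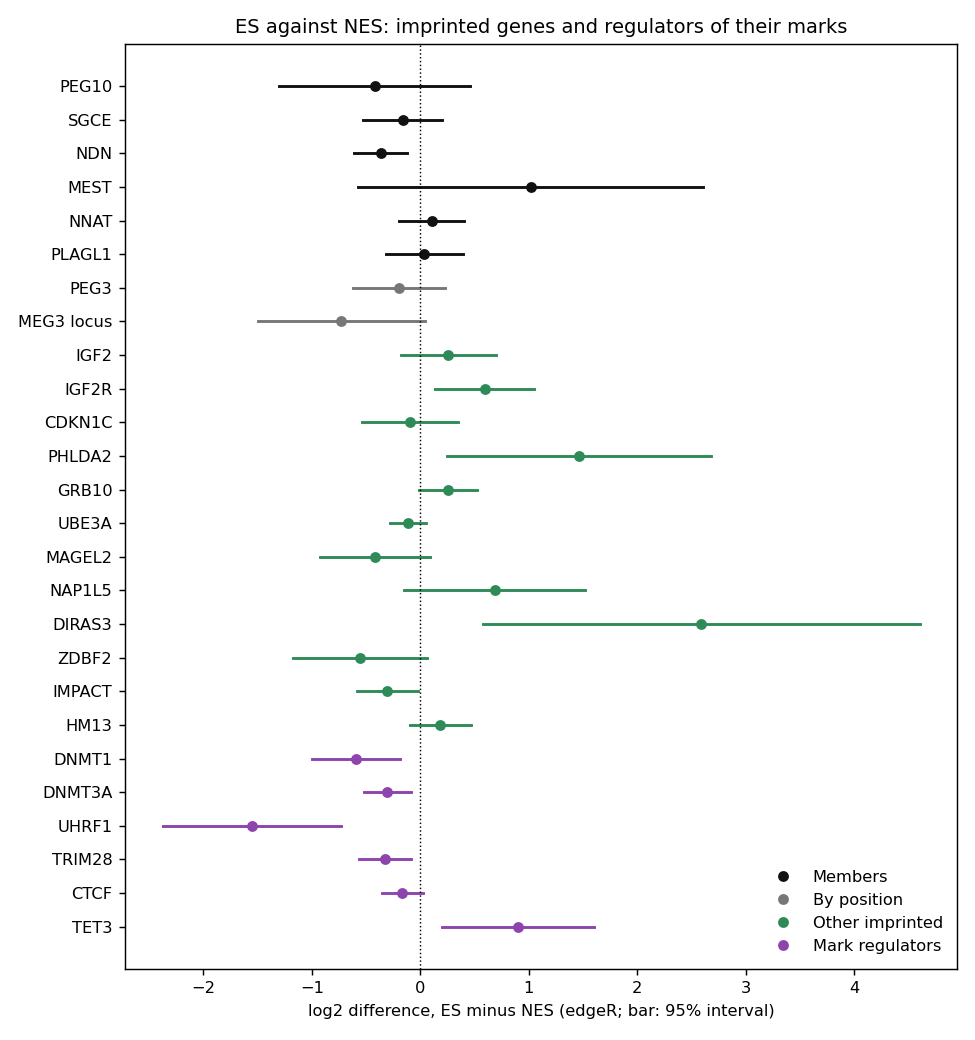
Log2 differences, ES minus NES, with 95% intervals from edgeR's quasi-likelihood fit, for the 6 tested members (black), 2 loci found otherwise (grey), named genes of the wider imprinted list (green) and regulators of imprinting marks (purple). The intervals of NNAT, PLAGL1, SGCE and PEG3 lie within 0.63 of 0, those of MEST and PEG10 are far wider, and UHRF1 lies farthest below 0 at -1.55.

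Among 40 further genes imprinted in at least 1 mammal, 30 had a row and 19 passed the expression filter. None passed edgeR's test. At an unadjusted p under 0.05 there were 4 (3 higher and 1 lower in ES, against 9.5% and 6.79% of all loci tested). DESeq2 and limma called 0, against 1055 and 337 of the 20421 loci tested. One of the 3 higher genes, DIRAS3, was tested only because of a single ES library. The median log2 difference was -0.03, beside 0.04 over all loci tested. IGF2R, the receptor that removes IGF2 from the cell surface, averaged 283 ± 111 CPM in ES ovaries, against 188 ± 15.1 CPM in NES ovaries (log2 0.59 ± 0.21, adjusted p = 0.196 in edgeR's test). Its highest value was in ES3, and without that library the log2 difference was 0.38. IGF2, the fetal growth factor, read at its RefSeq position, averaged 102 ± 22.6 CPM in ES ovaries, against 85.5 ± 26.3 CPM in NES ovaries (log2 0.26 ± 0.20, adjusted p = 0.565 in edgeR's test), and without ES2 its log2 difference was 0.13.

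PHLDA2, a placental growth inhibitor, averaged 4.17 ± 4.05 CPM in ES ovaries, against 1.51 ± 0.49 CPM in NES ovaries (log2 1.46 ± 0.56, adjusted p = 0.228 in edgeR's test). The medians were 1.91 CPM in ES and 1.42 CPM in NES, and only 2 ES libraries lay above every NES library. The log2 difference of PHLDA2 was 0.99 without ES3, 0.74 with limma and 0.30 with library weights. DIRAS3, a RAS-like growth suppressor, had 14.5 CPM in ES4, while the other 5 ES libraries averaged 0.63 ± 0.22 CPM and the NES libraries 0.49 ± 0.19 CPM. It passed the expression filter through ES4 alone, since its mean FPKM without that library was 0.254. IMPACT, a regulator of translation under stress, averaged 19.1 ± 3.66 CPM in ES ovaries, against 23.6 ± 1.64 CPM in NES ovaries (log2 -0.30 ± 0.13, adjusted p = 0.269 in edgeR's test). The growth factor adaptor GRB10 had a log2 difference of 0.25 and the zinc finger gene ZDBF2 -0.55, with NAP1L5 at 0.68, HM13 at 0.18 and the cell cycle inhibitor CDKN1C at -0.10. Single libraries moved several of these, to 0.17 for GRB10, 0.41 for NAP1L5 and 0.02 for CDKN1C without ES1, to 0.10 for HM13 without ES2 and to -0.24 for CDKN1C without ES5.

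The enzymes and readers that set or keep imprinting marks were taken as a list of their own. Of 22 listed genes, 19 had a row and 17 were tested. None passed edgeR's test. At an unadjusted p under 0.05 there were 5 (1 higher and 4 lower in ES, against 9.5% and 6.79% of all loci). DESeq2 and limma each called 1, UHRF1, against 1055 and 337 of the 20421 loci tested. UHRF1, which brings the maintenance methylase to newly copied DNA, averaged 12.3 ± 7.18 CPM in ES ovaries, against 36.0 ± 14.6 CPM in NES ovaries (log2 -1.55 ± 0.38, adjusted p = 0.0704 in edgeR's test). The adjusted p was 0.00233 with DESeq2, 0.0369 with limma, 0.0222 without ES1 and 0.0213 without NES6. UHRF1 was not called in 19 of the 26 alternatives, with an adjusted p of up to 0.180, and leaving out any other single library gave 0.0994 to 0.167. Among these 19, taking the row of highest mean FPKM repeats the reported fit, and summing the rows of a symbol changed only PLAGL1. Neither could alter the call for UHRF1. ES1, at 26.3 CPM, was the only ES library above the lowest NES library, at 12.6 CPM.

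DNMT1, that maintenance methylase, averaged 88.0 ± 27.8 CPM in ES ovaries, against 133 ± 20.7 CPM in NES ovaries (log2 -0.60 ± 0.19, adjusted p = 0.148 in edgeR's test). Its adjusted p was 0.0296 without ES1 and 0.134 to 0.288 without any other single library. DNMT1 was not called in 24 of the 26 alternatives, which include the repeats named for UHRF1. Leaving out ES1 was 1 of the 2 that called it. UHRF1 and DNMT1 are known to be most active in cells copying their DNA, and the part of such cells in these values was not tested. DNMT3A, which sets new methylation, had a log2 difference of -0.30 (adjusted p = 0.174 in edgeR's test). For TRIM28, the co-repressor at imprinted control regions, it was -0.33 (adjusted p = 0.172 in edgeR's test). The boundary protein CTCF had -0.17 (adjusted p = 0.363 in edgeR's test). TRIM28 was called in 1 of the 26 alternatives, and DNMT3A and CTCF in 0. TET3, which oxidises methylated cytosine, averaged 78.8 ± 51.0 CPM in ES ovaries, against 42.1 ± 3.22 CPM in NES ovaries (log2 0.90 ± 0.32, adjusted p = 0.202 in edgeR's test). Without ES1, which had 173 CPM, the log2 difference was 0.50.

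The genes whose log2 CPM was most like each member over the 12 libraries came from 12337 named loci, each counted in all libraries and averaging 1 FPKM or more. They are descriptive, since the highest of so many correlations is high by selection. For NDN they included GPR107 and PTGES3 (r = 0.92 and 0.91), and for PEG10 they were PRKAR2B, SLC16A12 and SERPINE2 (0.94, 0.94 and 0.93). SGCE was most like RECK, TBC1D31 and HOXD8 (0.94, 0.93 and 0.92), MEST most like GPAT4, TBL3 and SRR (0.93, 0.91 and 0.91). NNAT was most like TMCO4, GSR and PIK3CB (0.88, 0.87 and 0.86) and PLAGL1 most like SOS1, CEP85L and PIK3CA (0.89, 0.87 and 0.85). For PEG3 they included PPP6R2 and EMC10 (0.89 and 0.89), and for the MEG3 locus they were FIZ1, NCALD and ISPD (0.86, 0.85 and 0.82). No member was on another member's list. With so few places per list this does not show that members vary apart. DLK1, PEG3 and the MEG3 locus were not among the named loci searched.

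**Figure D4:**
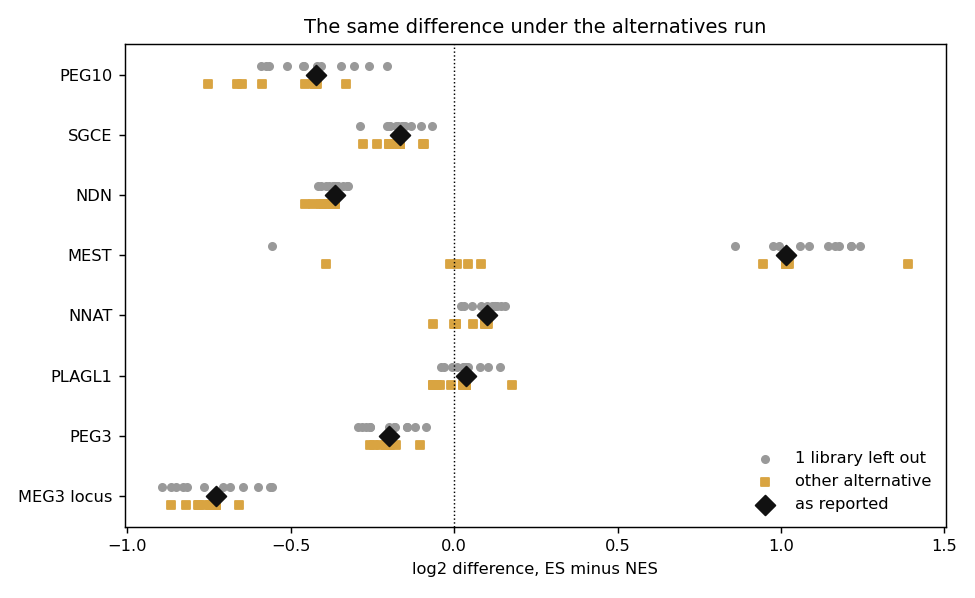
Log2 difference, ES minus NES, of each tested locus as reported (diamond), with each library left out in turn (grey dots) and under the other alternatives (yellow squares). NDN stays below 0 throughout, PLAGL1 and NNAT lie around 0, and MEST turns to -0.56 without ES1.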

How the data were processed

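Per the labels' protocols, Trizol RNA of 12 left ovaries went into dUTP strand-specific libraries after removal of ribosomal RNA. HISAT2, TopHat, cutadapt, FastQC and the build Sscrofa11.1 appear in the submitters' processing notes. Which program counted, and with which strand setting, is not given in the sources used here. In 1 table the authors deposited raw counts and FPKM values per locus and library, per the file headers. Each library is a separate gilt.

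The counts were tested with edgeR's quasi-likelihood test for loci averaging 0.5 FPKM or more, with TMM factors and no covariate. The Benjamini-Hochberg adjustment covered every locus tested, and 0.05 was the threshold. The SE is the log2 difference divided by the square root of F. Genes of the wider lists without a named row were looked up by Ensembl identifier or by a reciprocal overlap of at least 0.5 with a RefSeq gene. GNAS, INPP5F and AMPD3, which share their main locus with another gene, were not tested. Correlations used 100000 two-sided permutations. The test was checked on simulated counts. Members and lists were chosen with earlier results of these data known. Named genes were the members, the 10 further imprinted genes and 6 regulators with the smallest p-values, IGF2, IGF2R and CDKN1C, and the 3 likest genes per member, of which some are not reported here. DESeq2, limma on log2(FPKM + 0.5), scalings, filters, a block and left-out libraries were alternatives. Tools were scipy 1.17.1 in Python 3.11.15 and, in R 4.3.3, DESeq2 1.42.0, edgeR 4.0.16 and limma 3.58.1. Libraries were treated as unpaired, since the labels do not say which share a litter.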

Additional observations from a re-analysis of the deposited data

Results flagged for a closer look

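In 6 of the 54 groups of 6 libraries examined, the CPM of 1 library lay farther from its neighbour than Dixon's 95% critical value allows as a share of the group's range. Chance flags about 1 in 20 groups where values are normally distributed. The CPM values were not log-transformed and every flagged library was the highest of its group, so that rate may not apply here. The members gave 1 such case, MEST at 217 CPM in ES1, where the next ES library had 27.9 CPM. In ES1, UHRF1 stood at 26.3 CPM (next 12.2 CPM) and TET3 at 173 CPM (next 89.0 CPM). DIRAS3 stood at 14.5 CPM in ES4, with 0.785 CPM in the next ES library. IGF2 stood at 146 CPM in ES2 (next 103 CPM), and ZDBF2 at 16.3 CPM in NES2 (next NES library 12.4 CPM).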

How the results depend on the processing

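No member was called by edgeR under any alternative, and 1 (NDN) by DESeq2. The count of loci called over the whole table was 193 as reported, 295 with upper-quartile scaling, 1055 with DESeq2, 337, 334 and 319 with limma on log2(FPKM + 0.5), log2(FPKM + 0.1) and log2(FPKM + 1), 386 with library weights, 28 without a filter and 2 without ES3 and ES6 together. With 1 library left out it ran from 0 to 417. Leaving out NES6 gave 417, ES3 85, ES5 67, ES6 2 and NES2 1. Leaving out ES2, ES4, NES1, NES3, NES4 or NES5 gave 0 in edgeR. In these fits the number of loci whose unadjusted p was under 0.05 ran from 2627 to 3816.

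With the replicate number as a block the count was 0, with 2708 loci at an unadjusted p under 0.05. Same-numbered libraries had correlated deviations of -0.0322 to 0.235, and 3 of 6 correlated best with their own number. These values do not settle whether the numbers mark sisters. The numbers were not used as pairs because the labels do not say what they mark.

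The sign of 3 members turned. MEST was -0.011 with limma on log2(FPKM + 0.1), -0.39 with library weights, and -0.56 to 1.24 with 1 library left out. PLAGL1 was -0.0086 with upper-quartile scaling, -0.053, -0.064 and -0.044 with limma at the pseudocounts 0.5, 0.1 and 1, -0.063 with library weights, and -0.041 to 0.14 with 1 library left out. NNAT was -0.064 without ES3 and ES6 together. Among other genes, CDKN1C ran from -0.24 to 0.023 with 1 library left out. The correlation of PEG10 with SGCE ran from 0.52 to 0.91 with 1 library left out, and that of MEST with COPG2 from -0.16 to 0.33. NDN with MAGEL2 was -0.021 on deviations from the group means. The causes were not tested. DLK1 is limited by its low counts.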
